A study of Mus musculus with 30 samples.

Results

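Krüppel-like factors (KLFs) are zinc finger transcription factors that bind GC-rich and CACCC sequences in promoters and enhancers. A list of 9 Klf genes was described here in mouse spermatogonial stem cell (SSC) lines. Its members were taken by name, and they were chosen with earlier results of these data known. It held Klf3, Klf4, Klf5, Klf6, Klf9, Klf10, Klf11, Klf13 and Klf16. Of the 9 genes, 8 had an expression level among 13904 genes with one, 7 had an mRNA half-life among 5806 transcripts with one, and 6 had both. Klf9 had no expression level in the table, and Klf5 and Klf10 had no half-life in either line.

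The KLF family is commonly divided by the cofactors that its members bind. Klf9, Klf10, Klf11, Klf13 and Klf16 recruit the Sin3 corepressor, Klf3 recruits the CtBP corepressors, and Klf4, Klf5 and Klf6 act mainly as activators. In stem cells the family is best known for Klf4, a factor used to reprogram somatic cells to pluripotency, and for Klf5, which supports self-renewal of embryonic stem cells downstream of LIF. Many Klf genes are induced rapidly and transiently by growth factors, and short-lived mRNA is common among genes of that kind.

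The study asked which mRNAs the RNA-binding protein NANOS2 occupies in SSCs and how it affects them. SSC lines are cultures derived from the testes of early postnatal male mice, grown with GDNF, FGF2, EGF and LIF. They carried a Nanos2 allele whose protein bears an N-terminal tag, in a Nanos2 TAG/+ line (line 4), which also has an untagged allele, and a Nanos2 TAG/TAG line (line 5). They are called TAG/+ and TAG/TAG below. RNA-seq of ribosomal RNA-depleted total RNA gave 1 library per line, and SLAM-seq gave 1 half-life per transcript and line. The study treated the RNA-seq libraries of both lines as biological replicates and averaged their FPKM. The contrast of the lines below was made here. In SLAM-seq, RNA is labelled with 4-thiouridine and the label is followed as it disappears, here 0, 30, 60, 120, 540 and 1440 min after its removal, with 12 libraries per line. Both lines express tagged NANOS2, and neither is a loss of NANOS2. The study's methods state that cells for RNA-seq and SLAM-seq were sorted by flow cytometry, with a scatter gate that separates SSCs from residual feeder fibroblasts. The sample labels name only a depletion of feeders, and whether every sample was also sorted is not settled by these sources. By the labels, RNA-seq RNA was extracted with QIAzol from TAG/+ and with Trizol from TAG/TAG. The FPKM columns carry genotype letters rather than sample titles (GG and Gp), which were read as TAG/TAG and TAG/+, and the half-life files were assigned by the genotype in their names. Every direction between the lines rests on this reading. Genotype, line and extraction reagent of the RNA-seq libraries therefore cannot be told apart. The study's list of its most strongly NANOS2-bound mRNAs, ranked by crosslinking signal divided by FPKM, includes Klf11 and Klf16. FPKM thus entered that list, and binding of members outside it was not examined here.

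Expression levels are FPKM, that is, reads divided by transcript length and by a scaling total for the library. Whole reads were recovered from them, and FPKM had been scaled to totals of 10908790 (TAG/+) and 11738620 (TAG/TAG). These totals differ from the sums of the recovered reads, which were 10931439 and 11627842, respectively. Nanos2 itself was at 27.5 FPKM in TAG/+ and 23.8 FPKM in TAG/TAG. All 11 spermatogonial markers with an FPKM were detected in both lines, among them Ddx4, Zbtb16, Gfra1, Ret and Sall4. Their summed FPKM was 728 in TAG/+ and 974 in TAG/TAG, a ratio of 1.34, although 5 of the 11 were higher in TAG/TAG. At least 2-fold higher were 3 (Ret, Etv5 and Utf1), beside 11.7% of all genes with a mean FPKM of at least 1. Among the feeder fibroblast markers, 14 of 16 were higher in TAG/TAG, and their summed FPKM was 420 in TAG/+ and 594 in TAG/TAG, a ratio of 1.42. The 3 Sertoli markers with an FPKM summed to 5.35 and 26.5, respectively, and the macrophage marker Cd68 was at 2.80 and 10.2 FPKM. The 5 markers of differentiating spermatogonia and early meiosis with an FPKM summed to 71.9 and 52.8, respectively, and 1 of them was higher in TAG/TAG. Sycp3, the lowest of them relative to TAG/+, was at 4.59 FPKM (54 reads) and 0.632 FPKM (8 reads). No marker with an FPKM was at 0 in either line. Lum and Acta2 (fibroblasts), Amh (Sertoli cells) and Adgre1, Csf1r and Ptprc (macrophages) had no FPKM in the table. Neither had Dazl (spermatogonia) and Prdm9 (early meiosis). These markers were measured in the libraries as deposited, and whether every sample was sorted is not settled. The part of feeder, Sertoli, macrophage and differentiating cells in the values below was not tested. In such libraries, fewer cells of a type and less RNA per cell cannot be told apart.

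The highest Klf mRNA levels were those of Sin3-binding members. Klf10, a gene induced early by TGF-beta, was at 188 FPKM (3242 reads) in TAG/+ and 176 FPKM (3269 reads) in TAG/TAG. It was above 95.1% and 95.0% of the 12546 genes with a mean FPKM of at least 1, respectively. Klf11, its closest relative and also TGF-beta inducible, was at 97.6 FPKM (1546 reads) in TAG/+ and 149 FPKM (2530 reads) in TAG/TAG, above 89.5% and 93.7% of genes. Klf10 and Klf11 together thus stood well above every other member in both lines. Klf13, known as an activator of the Ccl5 gene in T lymphocytes, was at 49.6 FPKM (1138 reads) and 45.9 FPKM (1134 reads), respectively. Klf16 was at 23.0 FPKM (671 reads) in TAG/+ and 27.5 FPKM (864 reads) in TAG/TAG.

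The members of the other cofactor groups were at lower levels, apart from Klf4. Klf4 was at 32.2 FPKM (517 reads) in TAG/+ and 47.6 FPKM (821 reads) in TAG/TAG, above 70.3% and 78.3% of genes. Klf3, the CtBP-binding member, was at 9.90 FPKM (203 reads) and 17.3 FPKM (382 reads), respectively. An antisense gene, Gm20033, overlaps 404 bases of Klf3 exons, and whether the counting used strand is not given in the sources used here. Klf5 was at 1.57 FPKM (53 reads) in TAG/+ and 4.59 FPKM (167 reads) in TAG/TAG. Klf6, a broadly expressed activator, was at 1.79 FPKM (40 reads) and 4.00 FPKM (96 reads), respectively. Klf5 and Klf6 were the only members below 5 FPKM in both lines. Of the 50-base stretches of each member's annotated transcripts, at most 0.35% also occurred in a transcript of another gene.

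The order of the members by mean FPKM of both lines was Klf10, Klf11, Klf13, Klf4, Klf16, Klf3, Klf5 and Klf6. Most neighbours in this order had 95% counting intervals (exact Poisson, from the reads) that did not overlap in either line. The exceptions were Klf13 and Klf4 in TAG/TAG, and Klf5 and Klf6 in both lines. In TAG/TAG, the interval was 43.3 to 48.7 FPKM for Klf13 and 44.4 to 51.0 FPKM for Klf4. These intervals do not cover the transcript length used, which was the mean over a gene's annotated transcripts. For Klf13 this mean was 2104 nucleotides, although its annotated 3′ UTR alone spans 5157. The mean was also below the 3′ UTR for Klf3 (1880 and 3743), Klf6 (2046 and 3111) and Klf11 (1452 and 2326). Klf16 had 1 annotated transcript, of 2674 nucleotides, whereas the mean for Klf4 was 1470. Klf16 had more reads than Klf4 in both lines, and a lower FPKM. With other lengths the order could differ. Each line on its own put 6 of the 8 members at the same rank as the mean did. From lowest to highest, the members spanned 120-fold in TAG/+ and 44.0-fold in TAG/TAG. The median over the 8 members was 27.6 FPKM and 36.7 FPKM, respectively, beside 13.1 FPKM and 13.0 FPKM over all genes with a mean of at least 1.

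**Figure D1:**
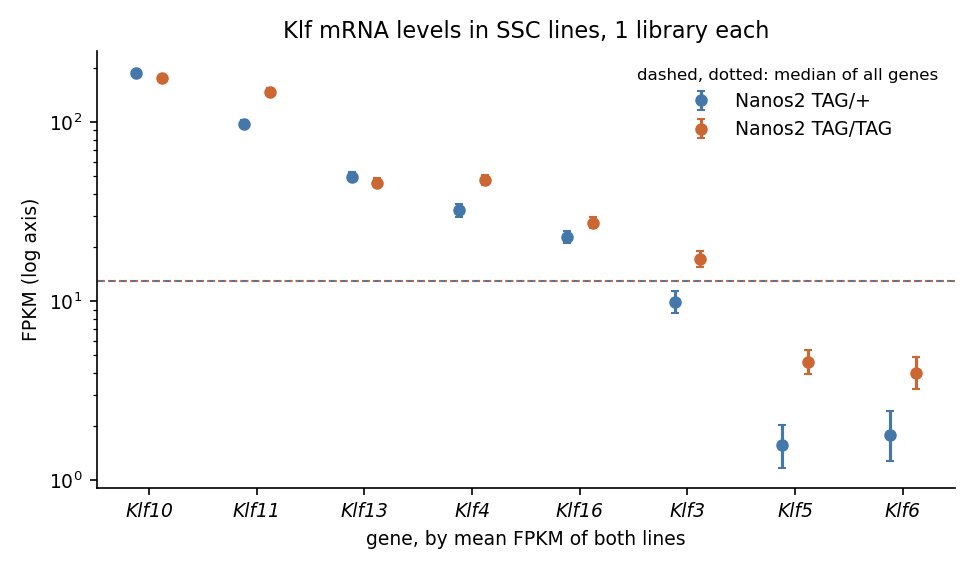
FPKM (log axis) of the 8 Klf genes with an expression level, in the order of their mean, in TAG/+ (blue) and TAG/TAG (orange), 1 library each. Bars are 95% counting intervals and the horizontal lines are the medians of all genes with a mean FPKM of at least 1; 5 members lie above the medians in both lines, Klf3 is below them in TAG/+ and above in TAG/TAG, and Klf5 and Klf6 below.

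The lines were next compared gene by gene. With 1 library per line there is no replicate check, so fold differences are given with exact 95% counting intervals (Clopper-Pearson on the recovered reads), which cover counting error only. Of the 8 members, 6 had a higher FPKM in TAG/TAG and 2 a lower one. At least 2-fold higher were 2 members, Klf5 and Klf6, beside 11.7% of all genes with a mean FPKM of at least 1. No member was at least 2-fold lower, beside 8.67% of all genes. With 8 members, these counts lie too near the background to say anything of the family as a whole. The FPKM of Klf5 was 2.93-fold higher in TAG/TAG (interval 2.14 to 4.07), and that of Klf6 was 2.23-fold higher (1.53 to 3.31). Klf6 was past 2-fold with a pseudocount of 0.1 FPKM and not with 1, and its interval reached below 2. These are the members with the fewest reads.

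Smaller differences were more precisely counted. The FPKM of Klf3 was 1.75-fold higher in TAG/TAG (1.47 to 2.08), that of Klf11 was 1.52-fold higher (1.43 to 1.62) and that of Klf4 was 1.48-fold higher (1.32 to 1.65). That of Klf16 was 1.20-fold higher (1.08 to 1.33). Klf10 had a ratio of 0.937 (0.892 to 0.984) and Klf13 a ratio of 0.926 (0.852 to 1.01), TAG/TAG over TAG/+. Among the Sin3-binding members, Klf11 therefore differed more between the lines than Klf10, Klf13 and Klf16, whose intervals lay entirely below that of Klf11. On the log2 scale with a pseudocount of 0.1 FPKM, the median difference over the 8 members was 0.58, beside a median of -0.003 and an SD of 1.19 over all 12546 genes. Feeder fibroblast markers had a median difference of 0.54 on the same scale. Of these 16, 5 were at least 2-fold higher and 1 at least 2-fold lower in TAG/TAG. The median was -0.07 for spermatogonial markers, -0.40 for markers of differentiating spermatogonia and early meiosis, and 1.72 for the 3 Sertoli markers. The part of any of these cells in the Klf differences was not tested.

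**Figure D2:**
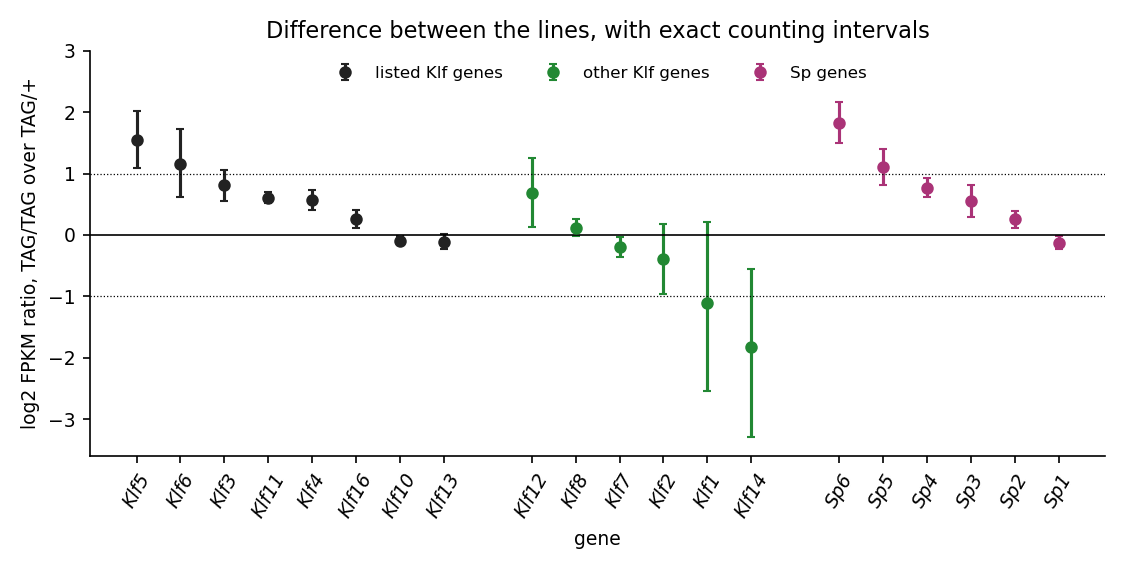
Log2 ratio of FPKM (TAG/TAG over TAG/+, no pseudocount) for the listed Klf genes (black), the other Klf genes (green) and the Sp genes (purple) with an expression level. Bars are 95% counting intervals and dotted lines mark 2-fold; 6 of 8 listed genes lie above 0, with Klf5 highest and with Klf10 and Klf13 slightly below 0.

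The half-lives of the listed Klf mRNAs were mostly short. Over all 5806 transcripts, the lowest 25% ended at 162 min in TAG/+ and 159 min in TAG/TAG, and the median was 224 min and 226 min. Of the 7 members with a half-life, 5 were in the lowest 25% in both lines, beside 15.6% of all transcripts. These were Klf3, Klf6, Klf9, Klf13 and Klf16. Because the members were chosen with earlier results of these data known, the count only describes this list. The median over the 7 members was 108 min in TAG/+ and 114 min in TAG/TAG. The half-lives came without an error, and the depth behind them is unknown.

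Klf3 mRNA had a half-life of 90.2 min in TAG/+ and 81.0 min in TAG/TAG, longer than those of 4.6% of transcripts in each. Klf9 mRNA, which encodes a factor induced by glucocorticoid and thyroid hormone, had half-lives of 84.9 min and 88.9 min, respectively. Klf6 mRNA had half-lives of 106 min and 94.5 min. These 3 members were below all the others in both lines. Klf16 mRNA followed with 108 min in TAG/+ and 114 min in TAG/TAG. Klf13 mRNA had half-lives of 151 min and 114 min, and with 151 min it was the member of this group nearest to the limit of the lowest 25%.

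Klf11 and Klf4 mRNAs lay outside the lowest 25%. Klf11 mRNA had a half-life of 196 min in TAG/+ and 180 min in TAG/TAG, longer than those of 37.7% and 32.7% of transcripts. Klf4 mRNA had a half-life of 624 min in TAG/+ and 1126 min in TAG/TAG, exceeded by 113 and 47 transcripts, respectively. It was 3.19 times and 6.25 times the next longest half-life of the family. Both values of Klf4 lay above the chase time of 540 min, after which the next and last sample was taken at 1440 min. In the same files, 5 of the 6 feeder fibroblast markers with a half-life were above 540 min in both lines (Col1a1, Col1a2, Fn1, Dcn and Sparc), as were 2.83% of all transcripts. None of the 8 spermatogonial markers with a half-life was above 540 min in either line, with medians of 260 min and 279 min. Whether every SLAM-seq sample was sorted is not settled, and the part of any feeder cells in the half-life of Klf4 was not tested.

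**Figure D3:**
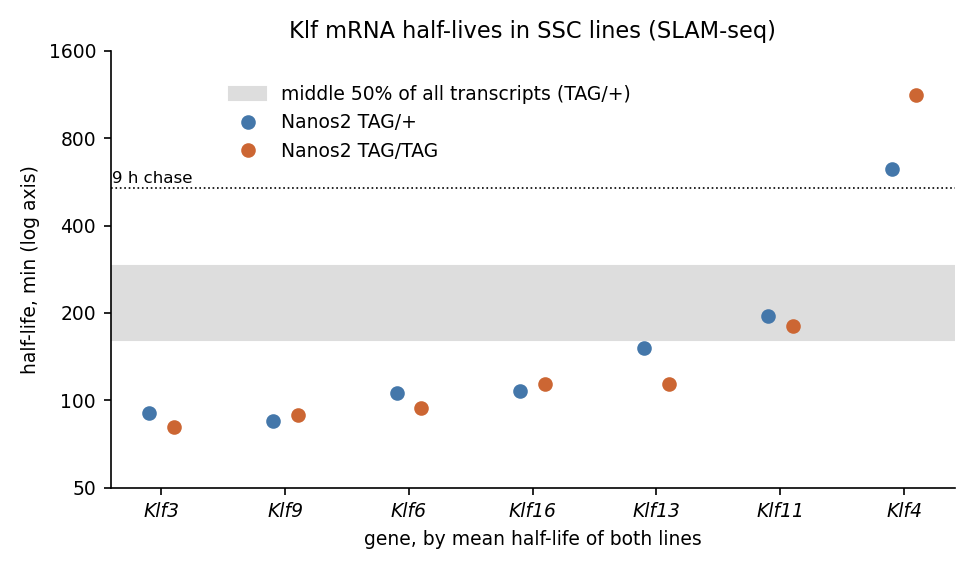
Half-life in min (log axis) of the 7 Klf mRNAs with one, by increasing mean, in TAG/+ (blue) and TAG/TAG (orange), 1 deposited value per line. The grey band is the middle range of all transcripts in TAG/+ (162 to 289 min) and the dotted line marks 540 min; 5 members lie below the band, Klf11 within it and Klf4 far above it.

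Between the lines, 1 of the 7 half-lives passed a limit of 1.5-fold. Klf4 was the single member with a half-life at least 1.5-fold longer in TAG/TAG, at 1.80-fold, beside 10.0% of all transcripts. No member had a half-life at least 1.5-fold shorter, beside 10.7% of all transcripts. Klf13 came nearest, with a half-life 1.33-fold longer in TAG/+. The other 5 differed by ratios of 0.893 (Klf6) to 1.06 (Klf16), TAG/TAG over TAG/+. For Klf11 the ratio was 0.920, whereas its FPKM ratio was 1.52. The median log2 ratio of half-life was -0.12 over the 7 members and 0.04 over all transcripts, whose SD was 0.53. No spread within a line was given.

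Level and half-life were then set side by side for the 6 members with both. Half-lives varied with level among all 5152 genes with both values: in TAG/+ the median was 150 min among genes near the level of Klf6 and 275 min among genes near that of Klf11. Each member was therefore also placed among genes whose mean FPKM was within 1.5-fold of its own, a reference chosen after seeing the data. Klf11, at a mean of 123 FPKM, had a longer half-life than 13.3% of 699 such genes in TAG/+ and 9.73% in TAG/TAG. The median half-life of these genes was 275 min and 283 min. For Klf13 these shares were 11.4% and 5.92% of 1166 genes, for Klf16 they were 6.95% and 9.29% of 1281 genes, and for Klf3 they were 6.67% and 6.38% of 1034 genes. Klf6, the least abundant member, had shares of 23.5% and 22.7% of 260 genes. By this reference 5 of 6 members, all but Klf4, were in the lowest 25% in both lines. The share of all genes that would be so placed by their own reference was not computed, so this count has no background beside it. Klf4 had a longer half-life than 98.8% and 99.4% of 1222 genes.

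**Figure D4:**
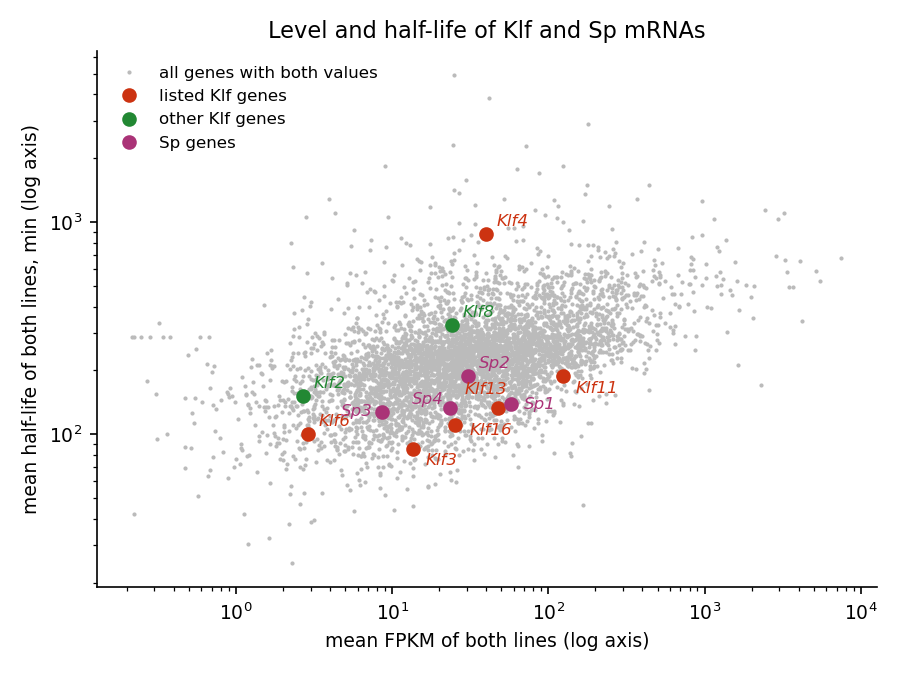
Mean half-life in min against mean FPKM of both lines (both log axes) for all genes with both values (grey), with the listed Klf genes in red, other Klf genes in green and Sp genes in purple. Of the 6 listed genes, 5 lie in the lower part of the cloud at their level, with Klf6 the nearest of them to its middle, and Klf4 lies at its upper edge.

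The 3′ UTRs of the Klf mRNAs were examined for short motifs that bear on mRNA decay, since NANOS2 binds mostly in 3′ UTRs. NANOS2 is known to act through the CCR4-NOT deadenylase, which shortens the poly(A) tail of an mRNA. The study's motif for NANOS2 was spelled out as 4 heptamers, which were AUGAAAU with its variant AUGAAUU and AUUAAAU with its variant AUUAAUU. The AU-rich element core AUUUA, its extended form UAUUUAU (which contains it) and the Pumilio motif UGUANAUA were searched too, on the sense strand of 1 principal transcript per gene (GENCODE M21, GRCm38). The NANOS2 motif occurred 15 times in 7 of the 9 members and in 37.7% of 20984 annotated 3′ UTRs. Because long 3′ UTRs hold more matches, each member was set beside 3′ UTRs within 20% of its length. Among these, the share with a NANOS2 motif ran from 37.4% (Klf4) to 85.6% (Klf13). A match is a description of letters and not a site of binding.

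Klf11 lies on chromosome 12 (GRCm38, chr12:24651274-24662789, plus strand), and its 3′ UTR of 2326 nucleotides lies in exon 4, the last exon. It held 3 matches to the NANOS2 motif, and 16.2% of 2451 3′ UTRs of like length held as many or more. The matches began 136, 1143 and 1468 nucleotides after the stop codon. They are shown because Klf11 is the most abundant of the listed NANOS2-bound members, with the motif in capitals and 9 bases on each side (chr12:24660590-24660614, chr12:24661597-24661621 and chr12:24661922-24661946):
Klf11 match at 136: uggaaguauAUUAAUUuuacuuuuc
Klf11 match at 1143: aaacauaucAUUAAAUggcaguggc
Klf11 match at 1468: uuuaacuuuAUUAAAUgauggcaag
The Klf11 3′ UTR also held 4 copies of AUUUA, as 54.5% of 3′ UTRs of like length did or exceeded, 1 copy of UAUUUAU and 1 Pumilio motif.

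Klf16, the other member on the study's list of most strongly bound mRNAs, has a 3′ UTR of 1797 nucleotides. This 3′ UTR lies in exon 2, the last exon, on the minus strand of chromosome 10. It held 1 match to the NANOS2 motif, beside 52.5% of 2654 3′ UTRs of like length with at least 1. Its 3′ UTR was 44.9% A and U, lower than that of all but 3.28% of those of like length. Klf9, which has no FPKM and therefore no place in a list ranked by it, held the most matches of the family, with 6 in 3222 nucleotides on chromosome 19, and 3.05% of 1899 3′ UTRs of like length held as many or more. For comparison with Klf11, the match in Klf16 (chr10:80567621-80567645, minus strand) and the match nearest to the stop codon in Klf9 (chr19:23165669-23165693, plus strand, exon 2) are given in the same form:
Klf16 match at 1285: ucuuccaucAUGAAAUgagggaggc
Klf9 match at 766: uugcuucguAUGAAUUguacuaucu

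Among the other members, Klf3 had 2 matches to the NANOS2 motif, Klf6, Klf10 and Klf13 had 1 each, and Klf4 and Klf5 had none. As many or more were held by 51.7% of 3′ UTRs of like length for Klf3 and 72.6% for Klf6. For Klf10 this share was 48.6%, and for Klf13 it was 85.6%. Of 3′ UTRs of like length, 37.4% held at least 1 match for Klf4 and 51.7% for Klf5. AUUUA was in all 9 members, with 42 copies in all, and in 63.0% of all annotated 3′ UTRs. In 3′ UTRs of like length, its share ran from 73.7% (Klf4) to 99.5% (Klf13). The longer form UAUUUAU was in 5 members (Klf5, Klf6, Klf10, Klf11 and Klf16) and in 26.2% of all 3′ UTRs. In 3′ UTRs of like length, its share ran from 23.9% (Klf4) to 67.6% (Klf13). Klf6 held 2 copies, and 22.8% of those of like length held as many or more. The 3′ UTR of Klf4, the member with the longest half-life, was the shortest of the family at 982 nucleotides and held 1 AUUUA and no match to the other motifs. A 3′ UTR of like length held at least 1 AUUUA in 73.7% of cases. Klf13, with the longest 3′ UTR at 5157 nucleotides, held 3 AUUUA, whereas 96.2% of 3′ UTRs of like length held at least as many. The Pumilio motif was in 7 members, beside 22.3% of all 3′ UTRs. In 3′ UTRs of like length, its share ran from 19.6% (Klf4) to 63.3% (Klf13). Klf5 and Klf9 held 3 matches each, as many or more being held by 1.72% and 5.58% of 3′ UTRs of like length, respectively.

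**Figure D5:**
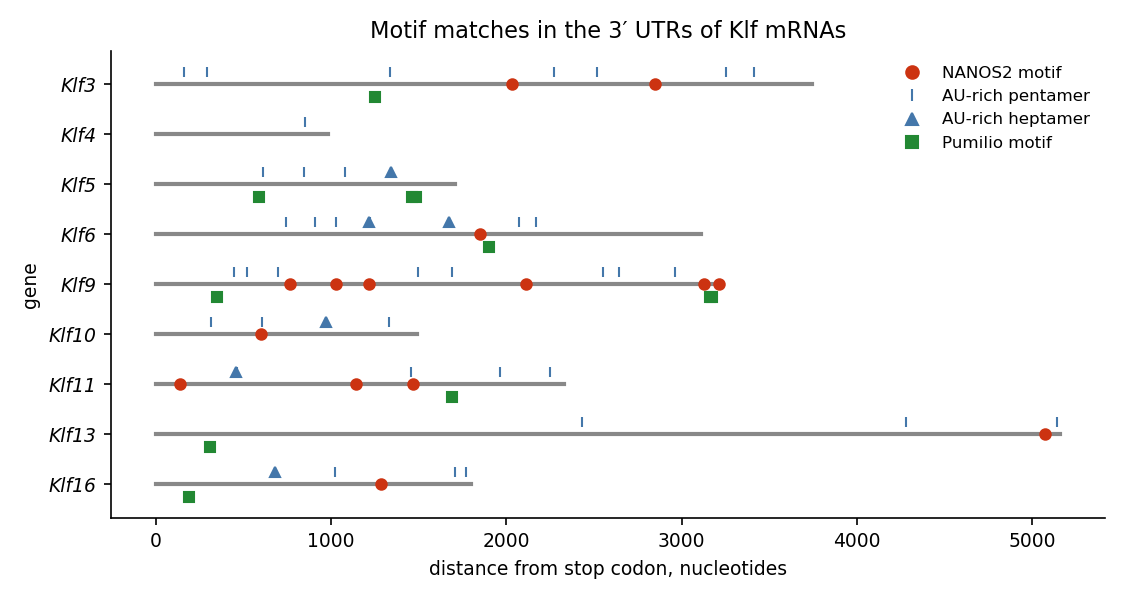
Positions of motif matches in the 3′ UTR of each of the 9 Klf mRNAs, in nucleotides from the stop codon; the grey line is the 3′ UTR. Red dots mark the NANOS2 motif, blue ticks AUUUA, blue triangles UAUUUAU and green squares the Pumilio motif; Klf9 has 6 red dots, Klf11 has 3, and Klf4 and Klf5 have none.

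Other genes of the KLF and Sp family were compared with the listed members. Of 8 other Klf genes searched, 6 had an FPKM (Klf1, Klf2, Klf7, Klf8, Klf12 and Klf14) and 2 had a half-life. None was past 2-fold among the 4 with a mean FPKM of at least 1, beside 20.4% of all such genes in either direction. Klf7 was at 18.8 and 16.4 FPKM and Klf8, a CtBP-binding relative of Klf3, at 23.2 and 25.1 FPKM in TAG/+ and TAG/TAG. Klf8 mRNA had half-lives of 297 min and 357 min, longer than those of 76.9% and 83.6% of transcripts. Klf2, a close relative of Klf4, was at 3.03 FPKM (61 reads) and 2.31 FPKM (50 reads), with half-lives of 97.9 min and 205 min, respectively. Unlike 5 of the 7 listed members, neither Klf2 nor Klf8 was in the lowest 25% in both lines (0 of 2). Klf1 and Klf14 were below 1 FPKM in both lines, and Klf15 and Klf17 had no values in the tables. By FPKM, Klf4 therefore exceeded Klf2 and Klf5, the other KLFs that support pluripotency, in both lines.

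The Sp genes encode the related Sp factors, which bind the same GC-rich sequences. Of 9 searched, 6 had an FPKM. At least 2-fold higher in TAG/TAG were 2 of them, Sp5 and Sp6, beside 11.7% of all genes with a mean FPKM of at least 1. Sp6 was at 2.43 FPKM (95 reads) and 8.61 FPKM (362 reads), and Sp5 at 6.20 FPKM (142 reads) and 13.4 FPKM (329 reads). Sp1, the founding member of the family, was at 60.4 and 55.4 FPKM, higher than every listed Klf gene but Klf10 and Klf11 in both lines. All 4 Sp genes with a half-life were below the median of all transcripts in both lines. Sp1 and Sp4 were in the lowest 25% in both, beside 15.6% of all transcripts. Sp3 had half-lives of 166 min in TAG/+ and 88.9 min in TAG/TAG.

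The cofactors and pathways of the KLFs were described from fixed gene lists. All 13 corepressors and coactivators had an FPKM and none was past 2-fold, with a median log2 difference of -0.004. Past 2-fold in either direction were 20.4% of all genes with a mean FPKM of at least 1. The most abundant were the acetyltransferases Crebbp (328 and 327 FPKM), Kat2a (213 and 234 FPKM) and Ep300 (171 and 214 FPKM), in TAG/+ and TAG/TAG. Sin3a, the scaffold bound by Klf9, Klf10, Klf11, Klf13 and Klf16, was at 116 and 126 FPKM. The 10 genes for turnover of KLF proteins, such as the ubiquitin ligase gene Fbxw7 and the deubiquitinase gene Bap1, also held none past 2-fold, with a median log2 difference of -0.09. Bap1 was the most abundant of them, at 160 and 159 FPKM.

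Among signalling genes that lie upstream of KLFs, 1 passed 2-fold, the TGF-beta ligand gene Tgfb1. Of all genes with a mean FPKM of at least 1, 20.4% did so in either direction. None of the 5 genes of the LIF and STAT3 pathway with an FPKM was past 2-fold, and Stat3 was at 404 and 307 FPKM. Of 9 TGF-beta pathway genes with a mean FPKM of at least 1, Tgfb1 alone was past 2-fold, at 4.67 FPKM (63 reads) in TAG/+ and 26.9 FPKM (391 reads) in TAG/TAG. The inhibitor gene Smad7, a TGF-beta target, was at 23.7 and 28.8 FPKM. Klf10, for which the FPKM ratio was 0.937, and Klf11, with 1.52, are both targets of this pathway. Among 4 glucocorticoid response genes with an FPKM, none was past 2-fold, and Tsc22d3 was at 116 and 138 FPKM.

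The pluripotency genes that act with Klf4 and Klf5 were divided. Of 8, Esrrb (5.49 and 11.7 FPKM) and Tbx3 (0.0584 FPKM from 2 reads, and 4.86 FPKM from 179 reads) were at least 2-fold higher in TAG/TAG, and for Tbx3 the counting interval of the ratio was 22.7 to 692. Sox2 (18.0 and 7.33 FPKM) and Nanog (2.92 and 1.07 FPKM) were at least 2-fold lower. Of all genes with a mean FPKM of at least 1, 11.7% were at least 2-fold higher and 8.67% at least 2-fold lower. The median log2 difference of these 8 pluripotency genes was -0.38, against 0.56 for Klf4 and 1.49 for Klf5. Immediate early genes, which like several KLFs are induced within minutes by growth factors, had short half-lives. Of 9 with a half-life, 8 were in the lowest 25% in both lines, beside 15.6% of all transcripts. Their medians were 92.9 min and 99.5 min. Among the 12 with an FPKM, 1, Atf3, was past 2-fold, at 0.562 FPKM and 1.91 FPKM (33 reads).

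The genes most like Klf11 were sought by the distance between their log2 FPKM and log2 half-life in each line and those of Klf11, each of the 4 values standardised over 5144 genes above 0. The nearest were Lrp10 (distance 0.185), Kif18b (0.198) and Slc35a4 (0.217), beside a median distance of 2.10. Kif18b was at 102 and 149 FPKM with half-lives of 203 min and 200 min in TAG/+ and TAG/TAG. Lrp10 had a smaller FPKM difference between the lines, at 120 and 142 FPKM. No other Klf gene was among the 3.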

How the data were processed

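FPKM values were deposited by the authors for 1 RNA-seq library per line, in columns assigned to the lines from their genotype letters. The submitters' processing notes name kallisto and DESeq2, so that the recovered reads may be rounded estimated counts; the build is not given in the sources used here. The half-lives that the authors deposited, in min, rest on T to C conversion rates from SlamDunk, to which they fitted exponential decay with nls after collapsing technical replicates; filters are not stated. CRAC libraries were not analysed here.

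FPKM times the mean GENCODE M21 transcript length gave whole reads (within 0.001) for 100% of 13867 genes with a unique symbol. Depths and intervals came from these reads. Log2 differences used a pseudocount of 0.1 FPKM and, for counts of genes, a mean FPKM of at least 1. Fold limits were 2 (FPKM) and 1.5 (half-life). No test was made, since each line gave 1 value. Named genes were all listed members, all other Klf and Sp genes, up to 4 genes of each fixed list and the 3 genes nearest to Klf11. The members and lists were chosen with earlier results of these data known. Scripts were tested on simulated data. Python 3.11.15, numpy 2.4.6, pandas 2.3.3 and scipy 1.17.1 were used.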

Additional observations from a re-analysis of the deposited data

How the results depend on the processing

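The FPKM difference of each of the 8 members kept its direction and stayed within its counting interval under a pseudocount of 1, no pseudocount and both other scalings of the libraries (32 of 32 values). Scaling to the same median raised all log2 ratios by 0.037 and scaling by the trimmed mean of log ratios by 0.008. The number of members past 2-fold in FPKM fell from 2 to 1 with a pseudocount of 1, which shrinks low values, and was 4 with a limit of 1.5-fold. The share of all genes past 2-fold in either direction was 20.4%, 14.9% with a pseudocount of 1 and 12.4% with a mean FPKM of at least 5. No share of all genes was computed for a limit of 1.5-fold in FPKM. Leaving out half-lives above 540 min, which removes Klf4, gave a median of 104 min in place of 114 min in TAG/TAG. With a limit of 2-fold in half-life, the number of members past it was 0 in place of 1, and the share of all transcripts past it was not computed. The number of members in the lowest 25% of half-lives was 5 in each line alone, with the quartile set by expressed transcripts, and among genes of like FPKM. For genes of like FPKM, no share of all genes was computed. Dividing each line by its median lowered every log2 half-life ratio by the same small amount, such as from -0.154 to -0.165 for Klf3. It is therefore no separate check of each member. No paired analysis was possible because each line has 1 FPKM and 1 half-life per gene. Low depth limits Klf5 and Klf6 in particular, and the error of the half-lives is unknown.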

Other observations

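At a steady state, the rate at which an mRNA is made equals the rate at which it is lost, which can be computed as FPKM divided by half-life and multiplied by the natural logarithm of 2. Under that assumption, which was not tested, and from separate experiments on the same lines, Klf11 turned over 20.7 FPKM per hour in TAG/+ and 34.3 FPKM per hour in TAG/TAG. Klf13 followed with 13.7 and 16.8 FPKM per hour, Klf16 with 8.87 and 10.1, and Klf3 with 4.57 and 8.89. Klf4, whose FPKM exceeded those of Klf16 and Klf3 in both lines, turned over 2.15 and 1.76 FPKM per hour. Klf6, the least abundant member, turned over 0.704 and 1.76 FPKM per hour. By this measure Klf4 stood below Klf3 and Klf16 in both lines, although by level it stood above both. The order by this measure also rests on the transcript lengths behind the FPKM.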
